A study of Mus musculus with 12 samples.

Results

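Preadipocytes of a brown and a white mouse line were turned into adipocytes in culture, and the change in gene expression that both lines shared was measured as the mean of the changes within each line. All 12 arrays of the series entered this comparison, 6 of adipocytes and 6 of preadipocytes, with 3 arrays in each of 4 groups. The brown groups were BFC adipocytes at day 8 and BFC preadipocytes at day 0. The white groups were 3T3-L1 adipocytes at day 10 and 3T3-L1 preadipocytes at day 0. 3T3-L1 is an established mouse fibroblast line that becomes fat-storing when induced, and BFC is the labels' name for a line of brown adipocytes. In both lines day 0 fell 2 days after the cells had grown to confluence, and induction lasted 3 days with IBMX at 0.5 mM and dexamethasone at 1 µM. The BFC mix also held insulin at 20 nM, indomethacin at 125 µM and T3, a thyroid hormone, at 1 nM, and insulin and T3 stayed in the medium until day 8. The 3T3-L1 mix also held insulin at 1 µg/mL, which was kept for 2 more days before plain growth medium. Line, induction mix, later medium and day of harvest therefore differed together and cannot be told apart, and the labels do not say whether the 3 arrays of a group came from separate cultures, so p-values measure only the spread between these arrays.

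Adipocyte differentiation is driven by a cascade in which IBMX and dexamethasone switch on C/EBP factors, which in turn raise the nuclear receptor PPARG and C/EBP alpha. These factors hold each other's expression and that of the genes for taking up, making and storing fat, while mitochondria multiply to supply acetyl-CoA and citrate for fat synthesis and to burn fat in brown cells. At the same time the spread, contractile fibroblast rounds up, takes apart its actin stress fibres and stops dividing.

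The deposited values were signal intensities scaled by the authors to a common level per array, so a change in the total RNA of a cell cannot be seen, and fewer cells of a type and less RNA per cell cannot be told apart. A change is given as a difference of means of log2(signal + 16), adipocytes minus preadipocytes, so that 1 stands for 2-fold well above the floor and changes of dim genes are smaller than their ratios of signal. The mean change of both lines was tested with limma over 13752 genes, each with 1 probe set, and a gene was called at an adjusted p (Benjamini-Hochberg) under 0.05. Errors of changes are standard errors from that fit, with 3 arrays in each group. Genes of similar size in both lines were picked by their values: a mean change of at least 1 in size, calls in the same direction in each line, and a 95% interval of the difference in change (BFC minus 3T3-L1) that lay whole within 0.5 of 0, which is a factor of 1.41.

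Differentiation was visible in the markers of both lines, but the BFC cells labelled preadipocytes already carried adipocyte genes. The summed signal of 5 adipocyte markers (Adipoq, Fabp4, Pparg, Cidec and Lipe) ranged over 81437 to 84937 in BFC adipocytes, against 45063 to 53238 in BFC preadipocytes, and 104693 to 118454 in 3T3-L1 adipocytes, against 8499.7 to 9331 in 3T3-L1 preadipocytes. Adiponectin (Adipoq), a hormone made by fat cells, had signals of 26904, 26089 and 26002 in BFC adipocytes, against 19089, 20791 and 16205 in BFC preadipocytes, and 34156, 32939.9 and 29256 in 3T3-L1 adipocytes, against 13.1, 40.3 and 42.5 in 3T3-L1 preadipocytes. The rise of Adipoq was 9.45 ± 0.23 in 3T3-L1 (limma, adjusted p = 2.8e-10), while the value in BFC was 0.50 ± 0.23 and did not pass (adjusted p = 0.085). The 6 preadipocyte markers tested summed to 711 to 793 in BFC adipocytes, against 12592 to 13269 in BFC preadipocytes, and 8754 to 9619 in 3T3-L1 adipocytes, against 20013 to 22363 in 3T3-L1 preadipocytes. All 6 fell in the mean change and in BFC, but only 4 fell in 3T3-L1. There Pdgfra had a mean of 2970 in adipocytes, against 2595 in preadipocytes, and the dim Cd34 had 20.9, against 15.9. None of the 7 endothelial markers was bright enough to be tested. The 8 macrophage markers, 6 of them tested, summed to 427 to 464 in BFC adipocytes, against 524 to 591 in BFC preadipocytes, and 954 to 1074 in 3T3-L1 adipocytes, against 1518 to 1675 in 3T3-L1 preadipocytes. Hepatocyte markers, of which 1 of 5 was tested, stayed at sums under 136 in every group, and 3 of 5 osteoblast and cartilage markers were tested, with sums of 358 to 426 in BFC adipocytes, against 667 to 717 in BFC preadipocytes, and 256 to 320.4 in 3T3-L1 adipocytes, against 112 to 178 in 3T3-L1 preadipocytes. The 9 skeletal muscle markers summed to 14762 to 17690.3 in BFC adipocytes, against 323 to 439 in BFC preadipocytes, and 1229 to 1351 in 3T3-L1 adipocytes, against 339 to 470.0 in 3T3-L1 preadipocytes, and most of the BFC adipocyte sum was myoglobin (Mb), an oxygen-binding protein, with signals of 14602, 17226 and 14180.3. For the beta-actin control, the ratio of signal at the 3′ end to that at the 5′ end, a measure of RNA integrity and of amplification, was 2.42 ± 0.048 in BFC adipocytes and 1.49 ± 0.063 in BFC preadipocytes, and 2.25 ± 0.15 in 3T3-L1 adipocytes and 1.40 ± 0.055 in 3T3-L1 preadipocytes (SD, n = 3 each; exact permutation test, two-sided, p = 0.1 in each line, the smallest p that 3 against 3 arrays allow). For Gapdh the ratio was 0.814 in BFC adipocytes and 0.775 in BFC preadipocytes, and 0.828 in 3T3-L1 adipocytes and 0.861 in 3T3-L1 preadipocytes. For the pyruvate carboxylase control it was 6.80 ± 0.763 in BFC adipocytes and 5.70 ± 0.902 in BFC preadipocytes, and 7.64 ± 1.83 in 3T3-L1 adipocytes and 3.63 ± 0.693 in 3T3-L1 preadipocytes (SD, n = 3 each; exact permutation test, two-sided, p = 0.2 in BFC and 0.1 in 3T3-L1). The part of these ratios in the results that follow was not tested.

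Most genes moved, and somewhat more of them fell than rose. The mean change was called in 9243 of 13752 genes (67.2%), of which 4293 rose (31.2%) and 4950 fell (36.0%). In BFC alone 3736 genes rose (27.2%) and 4342 fell (31.6%), and in 3T3-L1 alone 4141 rose (30.1%) and 4286 fell (31.2%). A call in the mean did not require both lines to move: 2305 genes (16.8%) rose in each line, 2475 (18.0%) fell in each line, and 1179 (8.57%) were called in opposite directions, 505 of them up in BFC and down in 3T3-L1 and 674 down in BFC and up in 3T3-L1. Of the genes called in the mean, 1663 were called only in BFC and 1997 only in 3T3-L1. Setting the arrays level by their hybridization controls instead of the authors' scaling moved the median of all genes to -0.24, against -0.027, and changed the split to 2996 rises and 6411 falls. At least 2-fold in each line, 753 genes rose and 641 fell. Among these 1394 genes the difference in change between the lines was itself called in 819, larger in BFC in 310 and larger in 3T3-L1 in 509, where the background over all genes tested was 51.1%.

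**Figure D1:**
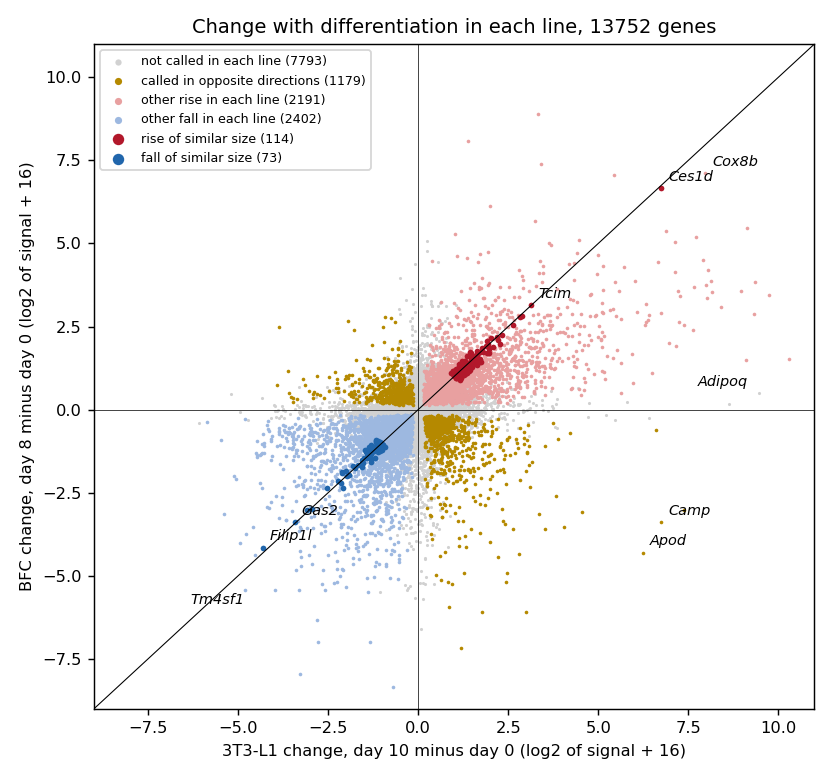
Change with differentiation in BFC (vertical axis) against 3T3-L1 (horizontal axis) in log2 units, 1 point per gene, coloured by the calls made in each line; the diagonal marks equal change. The 114 rises and 73 falls of similar size lie along the diagonal because they were picked by it, with Ces1d at the upper end and Filip1l at the lower end.

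Changes of similar size in both lines were found in 187 genes, 114 rises (0.829% of the genes tested) and 73 falls (0.531%), spread over 20 chromosomes. Their mean changes ran between 1.00 and 6.70 in size with a median of 1.28, and in 164 of 187 the 6 adipocyte arrays did not overlap the 6 preadipocyte arrays. Over all genes tested, the 6 adipocyte arrays lay wholly above in 12.6% and wholly below in 13.2%, and the 3 arrays of each stage were apart in each line in the same direction in 38.4%. No test applies to these genes as a group, since the same values picked them. Which genes were picked also depended on the scaling: equal medians kept 67 of the 114 rises and 40 of the 73 falls. Only 10 rises and 9 falls of similar size reached a mean change of 2, which is 4-fold. The interval on the difference was wide for many genes: its median half-width was 0.394, and in 5362 genes it exceeded the bound of 0.5, so a gene outside the group is not thereby shown to differ between the lines. The levels reached come from the arrays that the choice used and are given as a description. In 160 of 187 genes the adipocytes of both lines ended within 2-fold of each other. The other 27 (14.4%) were apart by 2-fold or more, beside 23.5% of all genes tested. Of these 27, 6 were higher in BFC and 21 in 3T3-L1, and all 18 such genes among the falls were higher in 3T3-L1. In 2 of the 187, Ces1d and Mreg, a group mean lay under the 40th percentile of the arrays. A further 222 probe sets stood for 119 of the 187 genes. Of these, 187 moved in the direction of the chosen probe set in both lines, and 119 also kept the change of the lines within 0.5 of each other.

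The rise of similar size with the highest value was that of Ces1d, a carboxylesterase that splits triglycerides in fat cells and liver. Ces1d had signals of 3450.5, 3529 and 3550.0 in BFC adipocytes, against 21.8, 18.3 and 16.6 in BFC preadipocytes, and 3174, 2977 and 2749.9 in 3T3-L1 adipocytes, against 8.01, 13.6 and 14.3 in 3T3-L1 preadipocytes. Every adipocyte array lay far above every preadipocyte array, and the changes were 6.66 ± 0.10 in BFC and 6.74 ± 0.10 in 3T3-L1, a difference of -0.08 (95% interval -0.39 to 0.23). All 6 preadipocyte arrays read Ces1d below the 40th percentile of the array (32.9 to 41.2). The 16 added to each signal thus bears on both changes and on their likeness. With 1 added the changes were 7.47 in BFC and 7.87 in 3T3-L1, a difference of -0.40. With 64 added they were 5.43 in BFC and 5.32 in 3T3-L1. Other probe sets of Ces1d rose by 5.54 and 5.60 in BFC and by 4.48 and 6.13 in 3T3-L1. Tcim, a small nuclear protein known as a regulator of Wnt signalling, gave 2060.5, 2068 and 1884 in BFC adipocytes, against 214, 213 and 211 in BFC preadipocytes, and 933, 1029.6 and 939.7 in 3T3-L1 adipocytes, against 96.1, 83.1 and 112 in 3T3-L1 preadipocytes. Its levels were higher in BFC at either stage, but the change was 3.14 in BFC and 3.13 in 3T3-L1. Aox1, the molybdenum enzyme aldehyde oxidase, gave 1689, 1783 and 1785 in BFC adipocytes, against 225, 271 and 208 in BFC preadipocytes, and 1489.5, 1364 and 1133 in 3T3-L1 adipocytes, against 158, 181 and 161 in 3T3-L1 preadipocytes, a change of 2.83 in BFC and 2.87 in 3T3-L1. Slc1a3, a glutamate transporter of the plasma membrane, changed by 2.78 in BFC and 2.83 in 3T3-L1. Its 5 other probe sets were less even. One gave -0.12 in BFC and 2.18 in 3T3-L1, another gave 1.09 in BFC and 1.03 in 3T3-L1, and the others gave 2.11, 2.57 and 2.67 in BFC and 2.72, 3.32 and 3.17 in 3T3-L1.

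The remaining leading rises included Mmut, Mcur1, Egln1 and Mreg. Mmut, the mitochondrial mutase that turns methylmalonyl-CoA into succinyl-CoA, gave 7421, 7389 and 7764 in BFC adipocytes, against 1633, 1715 and 1429 in BFC preadipocytes, and 9629, 9421 and 8763 in 3T3-L1 adipocytes, against 1774, 1733 and 1969 in 3T3-L1 preadipocytes. The groups did not overlap, with changes of 2.23 in BFC and 2.34 in 3T3-L1, although another of its probe sets read 1.79 in BFC and 0.46 in 3T3-L1. Mcur1, which regulates mitochondrial calcium uptake, gave 11258, 11488 and 11561 in BFC adipocytes, against 2543, 2119 and 2952 in BFC preadipocytes, and 6189, 6510.2 and 5838 in 3T3-L1 adipocytes, against 1378, 1320.3 and 1364 in 3T3-L1 preadipocytes. BFC cells held more of it throughout, and the changes of 2.18 in BFC and 2.18 in 3T3-L1 were equal to the second decimal. Egln1, the oxygen-dependent hydroxylase that marks HIF alpha subunits for breakdown, changed by 2.10 in BFC and 2.22 in 3T3-L1. A second probe set of Egln1 gave 1.54 in BFC and 2.19 in 3T3-L1. Mreg, melanoregulin, which acts in the transport of lysosome-related organelles, gave 2261, 2209.8 and 1907 in BFC adipocytes, against 332, 378 and 342 in BFC preadipocytes, and 257, 385 and 319 in 3T3-L1 adipocytes, against 37.9, 39.9 and 34.8 in 3T3-L1 preadipocytes. Here BFC preadipocytes were already as bright as 3T3-L1 adipocytes, so the change was alike (2.54 in BFC and 2.63 in 3T3-L1) while the levels were not, and the 6 adipocyte arrays overlapped the 6 preadipocyte arrays. With 3T3-L1 preadipocytes near the floor, this likeness also depended on the number added. The changes of Mreg were 2.60 in BFC and 3.04 in 3T3-L1 with 1 added, and 2.40 in BFC and 1.91 in 3T3-L1 with 64 added.

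The fall of similar size with the highest value was that of Filip1l, which takes its name from an interactor of the actin crosslinker filamin A. Filip1l had signals of 88.1, 71.0 and 76.7 in BFC adipocytes, against 1627, 1572 and 1784 in BFC preadipocytes, and 119, 126 and 140.3 in 3T3-L1 adipocytes, against 2994, 2685 and 2868 in 3T3-L1 preadipocytes. All adipocyte arrays lay below all preadipocyte arrays, with changes of -4.15 ± 0.09 in BFC and -4.31 ± 0.09 in 3T3-L1 (difference 0.16, 95% interval -0.12 to 0.44). Gas2, a protein that links actin and microtubules in growth-arrested cells, gave 254, 235 and 248 in BFC adipocytes, against 2731, 2659.9 and 2758 in BFC preadipocytes, and 571, 529 and 511 in 3T3-L1 adipocytes, against 5799, 6245 and 5803 in 3T3-L1 preadipocytes. It started higher in 3T3-L1 and fell in each line, with changes of -3.38 in BFC and -3.43 in 3T3-L1, but a second probe set of Gas2 gave -0.61 in BFC and 0.73 in 3T3-L1. Pxylp1, a phosphatase of glycosaminoglycan synthesis, gave 567, 600.2 and 587 in BFC adipocytes, against 4912, 4652 and 4960.1 in BFC preadipocytes, and 389, 384 and 398 in 3T3-L1 adipocytes, against 3667, 3253 and 3401 in 3T3-L1 preadipocytes, with changes of -3.02 in BFC and -3.09 in 3T3-L1 that a second probe set matched at -3.28 in BFC and -3.18 in 3T3-L1.

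The other leading falls included Emp3, Kirrel, Amot, Shroom4 and Oaf. Emp3, a membrane protein of the PMP22 family, gave 461, 615 and 568 in BFC adipocytes, against 4657, 4532 and 4047 in BFC preadipocytes, and 1032, 946 and 919 in 3T3-L1 adipocytes, against 6988, 7928 and 7666 in 3T3-L1 preadipocytes. Signals were lower in the adipocytes of both lines without overlap, with changes of -2.98 in BFC and -2.94 in 3T3-L1. Kirrel, an adhesion protein of the nephrin family, gave 567, 553 and 590.1 in BFC adipocytes, against 3087, 2787 and 3069 in BFC preadipocytes, and 693, 683 and 585 in 3T3-L1 adipocytes, against 3836, 3686 and 3969 in 3T3-L1 preadipocytes, with changes of -2.35 in BFC and -2.53 in 3T3-L1 that ended at close adipocyte levels. Amot, angiomotin, which binds actin and the growth regulator YAP, changed by -2.35 in BFC and -2.10 in 3T3-L1, while its 2 other probe sets gave -0.23 and -0.12 in BFC and -0.35 and 0.15 in 3T3-L1. Shroom4, an actin-binding protein, changed by -2.16 in BFC and -2.22 in 3T3-L1, and Oaf, a secreted protein, by -2.21 in BFC and -2.13 in 3T3-L1.

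**Figure D2:**
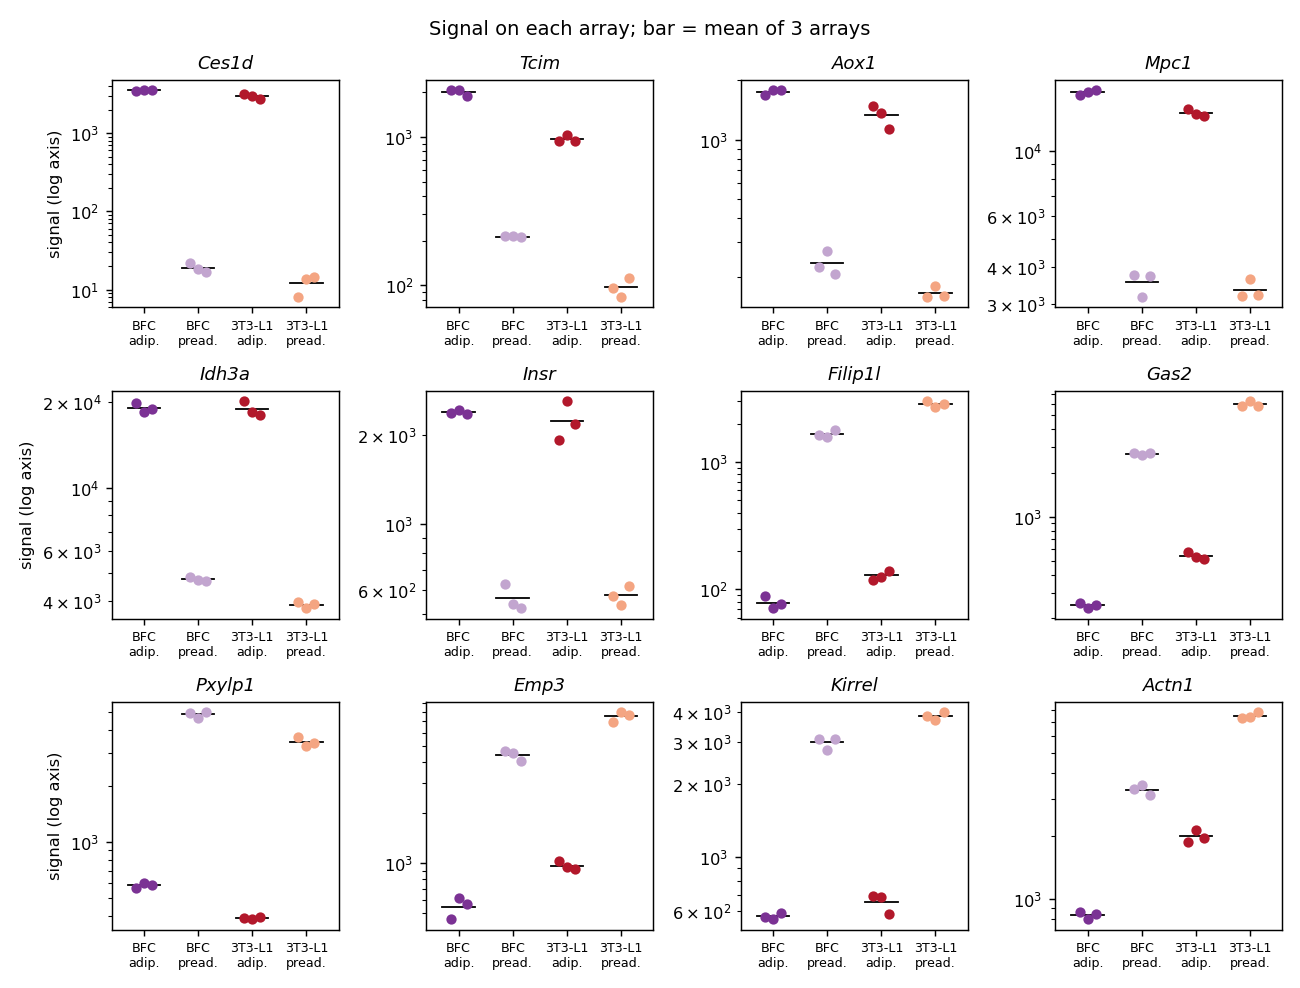
Signal of 12 genes with changes of similar size in both lines on each of the 12 arrays (vertical log axis, linear signal units), with BFC adipocytes, BFC preadipocytes, 3T3-L1 adipocytes and 3T3-L1 preadipocytes along the horizontal axis; points are arrays and bars are means of 3. In each panel the adipocyte groups sit on the same side of the preadipocyte groups, above for Ces1d to Insr and below for Filip1l to Actn1, while the height of the step relative to the line's own start is alike.

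At the edge of the choice, Dld and Zdhhc8 lay just inside the bound, with intervals of the difference of -0.50 to -0.10 and -0.50 to 0.42. Flna and Csf1 lay just outside it, with intervals of -0.049 to 0.50 and -0.50 to 0.29.

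Genes of the mitochondrial route from pyruvate to citrate and around the citric acid cycle rose in both lines. Of 18 genes tested in this list, 17 rose in the mean change, beside 31.2% of all genes tested, and 17 rose in each line, beside 16.8%. The median change of the list was 1.36 in BFC and 1.31 in 3T3-L1, where all genes had medians of -0.031 and 0.021. Changes of similar size were found in 7 of these genes, all rises, beside 0.829% of all genes tested. The difference in change was still called in 8 of 18, beside 51.1%, with 3 larger in 3T3-L1 and 5 larger in BFC. Mpc1, a subunit of the carrier that brings pyruvate into mitochondria, gave 15582, 15960.5 and 16147 in BFC adipocytes, against 3759, 3167 and 3752 in BFC preadipocytes, and 13953, 13384 and 13214 in 3T3-L1 adipocytes, against 3196, 3648 and 3216 in 3T3-L1 preadipocytes. It ended at nearly the same level in both lines, with changes of 2.16 in BFC and 2.01 in 3T3-L1. Idh3a, the catalytic subunit of NAD-dependent isocitrate dehydrogenase, gave 19751, 18460.2 and 18783 in BFC adipocytes, against 4857, 4752 and 4719.8 in BFC preadipocytes, and 20074, 18469 and 17888 in 3T3-L1 adipocytes, against 3963, 3774 and 3914 in 3T3-L1 preadipocytes. Its changes were 1.99 in BFC and 2.27 in 3T3-L1, and the difference of -0.28 was small but called (adjusted p = 0.02). Of its 3 other probe sets, the least alike gave 0.21 in BFC and 0.79 in 3T3-L1. The subunits Idh3b (1.56 in BFC and 1.59 in 3T3-L1) and Idh3g (1.28 in BFC and 1.32 in 3T3-L1) moved with it. Of 2 other probe sets of Idh3b, 1 gave 1.76 in BFC and 0.65 in 3T3-L1. Citrate synthase, Cs, changed by 1.64 in BFC and 1.46 in 3T3-L1, the succinate-CoA ligase subunit Suclg1 by 1.34 in BFC and 1.23 in 3T3-L1, and fumarase, Fh1, by 1.31 in BFC and 1.31 in 3T3-L1. Pdhb, a subunit of pyruvate dehydrogenase, rose by 1.65 in BFC and 1.94 in 3T3-L1. Pcx, pyruvate carboxylase, refills the cycle with oxaloacetate. It was the least even of the genes named here, with rises of 1.87 ± 0.061 in BFC and 5.10 ± 0.061 in 3T3-L1 (difference called, adjusted p = 3.2e-09). Cs, Idh3b, Idh3g, Suclg1 and Fh1 were named after their values were seen.

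Genes of electron transport rose in both lines as well. Of 40 genes tested for the respiratory chain and ATP synthase, 39 rose and 1 fell in the mean change, beside 31.2% and 36.0% of all genes tested. In each line 36 rose, beside 16.8%, and the median change was 0.94 in BFC and 0.83 in 3T3-L1. The difference in change was called in 16 of 40, beside 51.1%. Among the shared rises, 7 were larger in BFC and 7 larger in 3T3-L1 by a called difference. The 9 rises of similar size included 5 subunits of complex I, the NADH dehydrogenase: Ndufa10, Ndufab1, Ndufs1, Ndufs7 and Ndufv1. Of these, Ndufs7 changed by 1.60 in BFC and 1.34 in 3T3-L1 and Ndufv1 by 1.38 in BFC and 1.55 in 3T3-L1. The cytochrome bc1 complex added Uqcrc2 (1.40 in BFC and 1.35 in 3T3-L1), Uqcrfs1 (1.25 in BFC and 1.39 in 3T3-L1) and Uqcrq (1.42 in BFC and 1.29 in 3T3-L1), and succinate dehydrogenase added Sdhc (1.14 in BFC and 0.98 in 3T3-L1). The 3 other probe sets of Uqcrq showed little change (0.23, -0.11 and 0.44 in BFC and 0.051, -0.033 and 0.037 in 3T3-L1). Without probe sets of less specific design its mean change was 0.14 and not called (limma, adjusted p = 0.65). A second probe set of Sdhc gave 0.70 in BFC and 0.25 in 3T3-L1, and one of Ndufa10 gave 1.98 in BFC and 1.20 in 3T3-L1. The catalytic succinate dehydrogenase subunit Sdha had signals of 11987, 12054 and 12225 in BFC adipocytes, against 4872, 5061 and 4565 in BFC preadipocytes, and 10390.3, 10326 and 9633 in 3T3-L1 adipocytes, against 3087, 3222 and 3011 in 3T3-L1 preadipocytes, and rose by 1.32 in BFC and 1.70 in 3T3-L1. Outside this list, the tissue-specific cytochrome c oxidase subunits moved far more. Cox8b gave 3081, 3704 and 4269 in BFC adipocytes, against 6.82, 2.41 and 27.1 in BFC preadipocytes, and 5338, 5533 and 4324 in 3T3-L1 adipocytes, against 7.22, 3.27 and 2.29 in 3T3-L1 preadipocytes, from signals near the floor in every preadipocyte array. Its changes were 7.13 ± 0.27 in BFC and 7.97 ± 0.27 in 3T3-L1, with an interval of the difference (-1.70 to 0.018) too wide to call alike or unlike. Cox7a1 rose by 7.06 in BFC and 5.44 in 3T3-L1, larger in BFC (adjusted p = 2.9e-05). Ndufa10, Ndufab1, Ndufs1, Uqcrfs1, Uqcrq and Sdhc were named after their values were seen.

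Most genes of the machinery that makes these complexes rose in the mean by small amounts, but some moved in opposite directions in the lines. How many genes were called depended on the scaling of the arrays. Mitochondrial ribosomal proteins rose in the mean in 26 of 31 genes, beside 31.2% of all genes tested, and in each line in 19, beside 16.8%. Another 2 were called in opposite directions, beside 8.57%. The median change was 0.48 in BFC and 0.41 in 3T3-L1. Scaled to hybridization controls, 17 rose and 5 fell in the mean and 10 rose in each line, with a median of 0.29 in BFC and 0.13 in 3T3-L1. The member with the highest smaller change, Mrpl44, rose by 1.02 in BFC and 0.94 in 3T3-L1. Of 27 genes for protein import and upkeep of the mitochondrial genome, 20 rose and 3 fell in the mean, beside 31.2% and 36.0% of all genes tested. In each line 16 rose, beside 16.8%, a count that became 10 with equal medians and 6 with hybridization control scaling. Another 4 were called in opposite directions, beside 8.57%. Taken by line, 6 fell in 3T3-L1 and 1 in BFC. Tfam of this list gave 3700, 3856 and 3757 in BFC adipocytes, against 2404, 2256 and 2488 in BFC preadipocytes. In 3T3-L1 it gave 1485, 1331 and 1392 in adipocytes, against 2068, 1790 and 1949 in preadipocytes. Timm44, which tethers the import motor to the inner membrane, rose by 1.35 in BFC and 0.98 in 3T3-L1. The median of that list was 0.61 in BFC and 0.25 in 3T3-L1, and its 3T3-L1 value turned to -0.034 when arrays were scaled to hybridization controls. Of 23 cytosolic ribosomal proteins, 12 fell in the mean, beside 36.0% of all genes tested, and 3 in each line, beside 18.0%, with a median of -0.18 in BFC and -0.076 in 3T3-L1. Those counts were 18 and 12 with quantile normalization, 15 and 6 with equal medians, and 23 and 19 with hybridization control scaling.

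Fat and amino acid breakdown rose in both lines, mostly by more in 3T3-L1. Branched-chain amino acid breakdown feeds acetyl-CoA and propionyl-CoA into fat synthesis. All 19 of its genes tested rose in each line, beside 16.8% of all genes tested. The median was 1.43 in BFC and 2.34 in 3T3-L1, and each of the 15 called differences in this list was larger in 3T3-L1. Bckdha, a subunit of the dehydrogenase that commits these amino acids to breakdown, had signals of 2661, 3049 and 2917 in BFC adipocytes, against 632, 573 and 488 in BFC preadipocytes, and 2053, 2484 and 2074 in 3T3-L1 adipocytes, against 194, 229 and 228 in 3T3-L1 preadipocytes. Its rise was 2.32 in BFC and 3.25 in 3T3-L1. Mmut and Dld (1.43 in BFC and 1.74 in 3T3-L1) were the 2 members of similar size, where Dld is the dihydrolipoamide dehydrogenase that several keto acid dehydrogenases share.

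Mitochondrial fatty acid oxidation rose in the mean in 17 of 18 genes and in each line in 16, beside 31.2% and 16.8% of all genes tested. The median was 1.37 in BFC and 1.60 in 3T3-L1. Acadvl, the dehydrogenase of very long chains, rose by 1.71 in BFC and 2.55 in 3T3-L1 and Echs1, the short-chain hydratase, by 1.64 in BFC and 2.06 in 3T3-L1. Acaa2, the thiolase of the last step, gave 5353, 5502 and 6412 in BFC adipocytes, against 1702, 1736 and 1602 in BFC preadipocytes, and 3737, 3967 and 3438 in 3T3-L1 adipocytes, against 1181, 1173 and 1186 in 3T3-L1 preadipocytes, a change of similar size (1.76 in BFC and 1.64 in 3T3-L1), as was that of Etfa (1.47 in BFC and 1.22 in 3T3-L1), which passes the electrons on and was named after its values were seen. The gene of the list that fell in each line was Cpt1a, the carnitine palmitoyltransferase of the liver type (-0.51 in BFC and -0.95 in 3T3-L1, named after its values were seen). That call depended on the scaling: with quantile normalization or hybridization control scaling no gene of the list was called down in each line. All 24 peroxisome genes rose in the mean and 21 in each line, beside 31.2% and 16.8% of all genes tested. Their median was 0.92 in BFC and 2.15 in 3T3-L1. Phyh, which starts the breakdown of phytanic acid, rose by 2.18 in BFC and 2.48 in 3T3-L1. Acaa1b, the peroxisomal thiolase, gave 8991, 11117 and 9568 in BFC adipocytes, against 629, 679.7 and 639 in BFC preadipocytes, and 996, 853 and 670.5 in 3T3-L1 adipocytes, against 54.3, 1.65 and 42.7 in 3T3-L1 preadipocytes. Its changes of 3.89 ± 0.42 in BFC and 4.34 ± 0.42 in 3T3-L1 carried a wide error, and its probes may also read Acaa1a, a near-identical copy. Hsd17b4 (1.02 in BFC and 1.00 in 3T3-L1), which acts in peroxisomal chain shortening, and Pex7 (1.20 in BFC and 1.37 in 3T3-L1), an import receptor, were of similar size and were named after their values were seen.

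**Figure D3:**
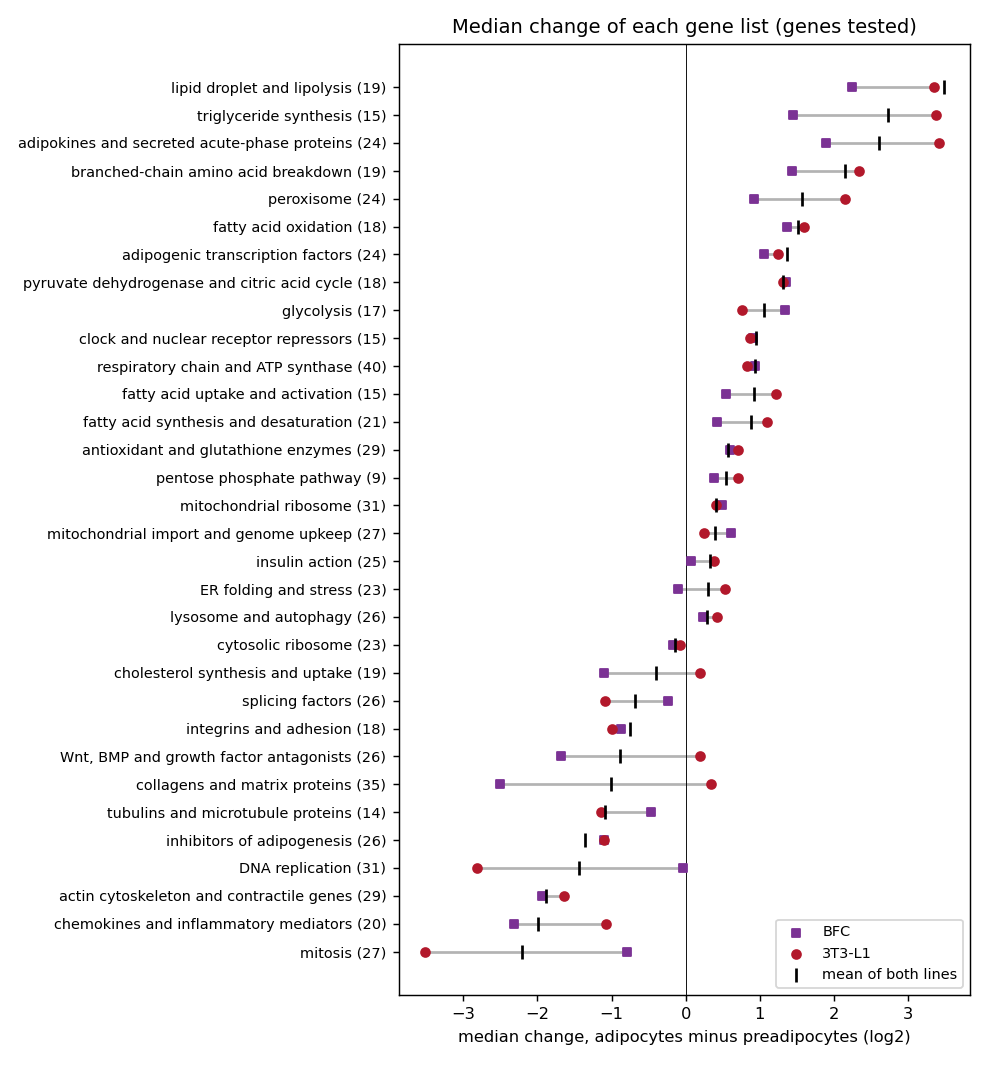
Median change of each gene list in BFC (squares), 3T3-L1 (circles) and the mean of both lines (bars), in log2 units along the horizontal axis, with the number of genes tested in brackets. The medians of the citric acid cycle (1.36 and 1.31), the respiratory chain (0.94 and 0.83) and actin (-1.94 and -1.64) lie close together in the lines, while those of mitosis, DNA replication and collagens lie apart. Close medians need not mean even genes: in actin the difference between the lines was called in 19 of 29 genes.

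Fat storage genes rose in both lines but with less even sizes. Triglyceride synthesis rose in each line in 11 of 15 genes, beside 16.8% of all genes tested, with a median of 1.45 in BFC and 3.37 in 3T3-L1. Of its 11 called differences, 10 were in genes that rose in each line and rose more in 3T3-L1. Pck1, which makes glycerol phosphate from small precursors in fat cells, rose by 3.88 in BFC and 8.12 in 3T3-L1. Gpd1, which makes it from a glycolytic intermediate, rose by 3.53 in BFC and 8.16 in 3T3-L1. Agpat3, an acyltransferase of the next steps, was the member of similar size (1.82 in BFC and 1.96 in 3T3-L1, named after its values were seen). Its 3 other probe sets each gave more in BFC, with 1.96, 1.16 and 1.84 in BFC and 1.15, 0.32 and 0.80 in 3T3-L1. Lipid droplet and lipolysis genes rose in each line in 15 of 19 genes, beside the same 16.8% (median 2.24 in BFC and 3.35 in 3T3-L1). Pnpla2, the lipase that starts triglyceride breakdown, had signals of 9849.7, 8603 and 9308 in BFC adipocytes, against 598, 489 and 523 in BFC preadipocytes, and 6347, 6487 and 5980.2 in 3T3-L1 adipocytes, against 203, 181 and 178 in 3T3-L1 preadipocytes. It rose by 4.07 in BFC and 4.95 in 3T3-L1, and Mgll, which cleaves the last fatty acid, by 3.48 in BFC and 4.81 in 3T3-L1.

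Fatty acid synthesis and desaturation rose in each line in 13 of 21 genes and fell in 1, beside 16.8% and 18.0% of all genes tested. Another 3 were called in opposite directions, beside 8.57%, and the median was 0.42 in BFC and 1.10 in 3T3-L1. Acaca, acetyl-CoA carboxylase, the committed step, changed by 1.40 in BFC and 1.42 in 3T3-L1, a similar size (named after its values were seen). Thrsp, a thyroid hormone responsive regulator of lipogenesis, gave 12462, 12365 and 11808 in BFC adipocytes, against 304, 274 and 219.6 in BFC preadipocytes, and 10395, 11123 and 8951 in 3T3-L1 adipocytes, against 3.56, 1.53 and 1.76 in 3T3-L1 preadipocytes. It was near the floor in 3T3-L1 preadipocytes and clearly present in BFC preadipocytes, and rises of 5.45 in BFC and 9.12 in 3T3-L1 ended at close levels. Fatty acid uptake and activation rose in each line in 8 of 15 genes, beside 16.8% of all genes tested (median 0.54 in BFC and 1.22 in 3T3-L1). Fabp4, the fatty acid binding protein of fat cells, gave 41239, 39523 and 38848 in BFC adipocytes, against 30127, 27115 and 25020.1 in BFC preadipocytes, and 46516, 43519.6 and 39941 in 3T3-L1 adipocytes, against 7838, 7764 and 8548 in 3T3-L1 preadipocytes, and rose by 0.54 in BFC and 2.42 in 3T3-L1. Cholesterol synthesis and uptake had no shared direction: of 19 genes, 3 rose and 4 fell in each line, beside 16.8% and 18.0% of all genes tested. Another 6 were called in opposite directions, beside 8.57%. The median was -1.10 in BFC and 0.20 in 3T3-L1, the 3T3-L1 value turning to -0.087 with hybridization control scaling. Its member of similar size was Stard4, a sterol carrier, with -1.14 in BFC and -0.92 in 3T3-L1.

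Glucose and insulin genes gave a mixed picture. Glycolysis rose in each line in 11 of 17 genes, beside 16.8% of all genes tested, with a median of 1.33 in BFC and 0.76 in 3T3-L1. Slc2a4, the insulin-regulated glucose transporter GLUT4, gave 2786, 2963 and 3021 in BFC adipocytes, against 532, 397 and 277 in BFC preadipocytes, and 3308, 3360.2 and 3377 in 3T3-L1 adipocytes, against 68.8, 10.4 and 11.9 in 3T3-L1 preadipocytes, and rose by 2.86 ± 0.39 in BFC and 6.41 ± 0.39 in 3T3-L1. Hk2, the hexokinase of insulin-responsive tissues, rose by 2.84 in BFC and 3.59 in 3T3-L1, and the lactate dehydrogenase subunit Ldhb by 2.14 in BFC and 2.55 in 3T3-L1. The pentose phosphate pathway rose in each line in 5 of 9 genes, beside 16.8% (median 0.38 in BFC and 0.70 in 3T3-L1), and in 3 with hybridization control scaling. Of 25 genes of insulin action, 7 rose and 4 fell in each line, beside 16.8% and 18.0% of all genes tested, with a median of 0.068 in BFC and 0.38 in 3T3-L1 whose BFC value turned to -0.12 with hybridization control scaling. Insr, the insulin receptor, was a rise of similar size, with signals of 2372, 2433 and 2342 in BFC adipocytes, against 630.2, 541 and 522 in BFC preadipocytes, and 1919, 2595 and 2173 in 3T3-L1 adipocytes, against 575, 534 and 622 in 3T3-L1 preadipocytes. Adipocytes and preadipocytes did not overlap and the lines lay close at each stage (2.05 in BFC and 1.91 in 3T3-L1), although 2 dimmer probe sets rose less, by 0.44 and 0.32 in BFC and by 0.85 and 0.97 in 3T3-L1. Foxo1, a transcription factor that insulin signalling keeps out of the nucleus, changed by 1.38 in BFC and 1.14 in 3T3-L1 (named after its values were seen).

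Antioxidant enzymes were split: 13 of 29 genes rose and 4 fell in each line, beside 16.8% and 18.0% of all genes tested. Their median was 0.59 in BFC and 0.70 in 3T3-L1. The rises of similar size were in mitochondrial Sod2 (1.72 in BFC and 1.43 in 3T3-L1), mitochondrial Prdx3 (1.39 in BFC and 1.20 in 3T3-L1) and the glutathione transferase Gstm1 (1.43 in BFC and 1.60 in 3T3-L1). Gstk1, another transferase, rose by 2.02 in BFC and 2.85 in 3T3-L1. Other probe sets were less even. For Sod2 they gave 1.80, 1.81 and 2.50 in BFC and 1.55, 0.93 and 0.84 in 3T3-L1. For Gstm1 the least alike of 3 gave 0.30 in BFC and 1.04 in 3T3-L1. Gstm1 and Prdx3 were named after their values were seen, and probes of Gstm1 may read close relatives of its family.

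Transcription factors that drive adipogenesis mostly rose, with unequal sizes in the lines. Of 24 tested, 19 rose and 3 fell in the mean, beside 31.2% and 36.0% of all genes tested. In each line 16 rose, beside 16.8%, and 3 were opposite, beside 8.57%. None was of similar size, beside 1.36% of all genes. The difference in change was called in 19 of 24, beside 51.1%. The median change was 1.06 in BFC and 1.24 in 3T3-L1. Pparg, the nuclear receptor at the centre of the programme, gave 9043, 9252 and 8699.7 in BFC adipocytes, against 3080.0, 3379.9 and 3105 in BFC preadipocytes, and 8757, 8773 and 8147 in 3T3-L1 adipocytes, against 665, 618 and 667 in 3T3-L1 preadipocytes. Adipocyte levels were close in both lines, but BFC preadipocytes started higher, and the changes were 1.49 in BFC and 3.69 in 3T3-L1 (difference called, adjusted p = 4.5e-08). Cebpa gave 5526, 4741 and 5404 in BFC adipocytes, against 3108, 2852 and 2789 in BFC preadipocytes, and 1551, 1832 and 1495 in 3T3-L1 adipocytes, against 64.7, 46.5 and 41.0 in 3T3-L1 preadipocytes. Its BFC preadipocytes were brighter than all 3T3-L1 adipocytes, and its changes were 0.84 in BFC and 4.63 in 3T3-L1. The coactivators of mitochondrial growth rose more evenly. Ppargc1b had signals of 8123, 7661 and 7326 in BFC adipocytes, against 612, 562 and 538 in BFC preadipocytes, and 1932, 1759 and 1448 in 3T3-L1 adipocytes, against 157, 165 and 160.0 in 3T3-L1 preadipocytes, with a change of 3.72 in BFC and 3.28 in 3T3-L1, and Ppargc1a changed by 2.28 in BFC and 2.78 in 3T3-L1. Klf15 rose by 2.62 in BFC and 7.24 in 3T3-L1. Cebpd, an early factor, fell in BFC and rose in 3T3-L1 (-1.43 in BFC and 0.66 in 3T3-L1), and Klf5 did the reverse (0.93 in BFC and -3.20 in 3T3-L1). Zfp423, a factor of preadipocytes, fell in BFC and rose in 3T3-L1 (-0.87 in BFC and 2.95 in 3T3-L1). It was brighter in BFC preadipocytes (710, 691 and 751) than in 3T3-L1 preadipocytes (49.7, 84.5 and 73.9).

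Inhibitors of adipogenesis fell in the mean in 19 of 26 genes, beside 36.0% of all genes tested, and in each line in 14, beside 18.0%. Their median change was -1.10 in BFC and -1.11 in 3T3-L1. None was of similar size, beside 1.36% of all genes tested, and 2 were called in opposite directions, beside 8.57%. The difference in change was called in 18 of 26, beside 51.1% of all genes tested. Dlk1, the membrane protein of preadipocytes known as Pref-1, gave 31.5, 31.9 and 32.1 in BFC adipocytes, against 964, 1014 and 965 in BFC preadipocytes, and 827, 702 and 808 in 3T3-L1 adipocytes, against 6151, 7369 and 5836 in 3T3-L1 preadipocytes. It fell in each line (-4.38 in BFC and -3.02 in 3T3-L1), yet 3T3-L1 adipocytes kept nearly as much as BFC preadipocytes held. Id3, which blocks helix-loop-helix factors, gave 1087, 1077 and 1119 in BFC adipocytes, against 9688, 9298 and 8344 in BFC preadipocytes, and 218, 254 and 264 in 3T3-L1 adipocytes, against 2997, 3039 and 2749.8 in 3T3-L1 preadipocytes, changes of -3.04 in BFC and -3.50 in 3T3-L1. Sox9, a factor of cartilage that holds back adipogenesis, fell by more in BFC (-4.55 in BFC and -2.25 in 3T3-L1). Among 26 Wnt, BMP and growth factor antagonists and receptors, 9 fell and 1 rose in each line, beside 18.0% and 16.8% of all genes tested. Their median was -1.68 in BFC and 0.20 in 3T3-L1, the 3T3-L1 value turning to -0.0094 with hybridization control scaling.

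Secreted proteins of fat cells all rose in the mean (24 of 24), 18 of them in each line, beside 31.2% and 16.8% of all genes tested. Their median was 1.89 in BFC and 3.42 in 3T3-L1, and none was of similar size, beside 1.36%. The 1 member called in opposite directions was Agt. Its signals were 464, 329 and 366 in BFC adipocytes, against 3684, 3000 and 3064 in BFC preadipocytes, and 4359, 4657 and 4422 in 3T3-L1 adipocytes, against 6.09, 20.0 and 9.25 in 3T3-L1 preadipocytes. Lrg1, a secreted leucine-rich glycoprotein, gave 1004, 1086 and 1003 in BFC adipocytes, against 2.05, 6.22 and 5.75 in BFC preadipocytes, and 162, 178 and 161 in 3T3-L1 adipocytes, against 5.47, 2.16 and 2.84 in 3T3-L1 preadipocytes. It was at the floor in every preadipocyte array, and its rises of 5.67 ± 0.10 in BFC and 3.23 ± 0.10 in 3T3-L1 differed (adjusted p = 3.1e-07). Orm1, an acute-phase protein, rose by 5.18 in BFC and 7.72 in 3T3-L1. The satiety hormone leptin (Lep) was not shared: its signals were 361, 419.6 and 413 in BFC adipocytes, against 3.65, 4.44 and 0.804 in BFC preadipocytes, and 10.3, 8.28 and 32.8 in 3T3-L1 adipocytes, against 4.44, 6.57 and 5.52 in 3T3-L1 preadipocytes, a rise of 4.45 ± 0.22 in BFC and 0.55 ± 0.22 in 3T3-L1, where it did not pass (adjusted p = 0.053). Ucp1, the uncoupling protein of brown fat, likewise changed by 3.64 ± 0.32 in BFC and -0.17 ± 0.32 in 3T3-L1 (adjusted p = 0.67). Tlcd3b, a ceramide synthase, was among the largest rises seen in each line, with 5.38 in BFC and 6.87 in 3T3-L1.

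Chemokines and inflammatory mediators fell in the mean in 14 of 20 genes and in each line in 11, beside 36.0% and 18.0% of all genes tested. Their median was -2.32 in BFC and -1.08 in 3T3-L1. Ccl2, which attracts monocytes, gave 217, 176 and 255 in BFC adipocytes, against 4173, 5131 and 4978 in BFC preadipocytes, and 184, 154 and 132 in 3T3-L1 adipocytes, against 3945, 4009 and 3964 in 3T3-L1 preadipocytes. Levels were close in both lines at both stages and the changes were -4.37 ± 0.14 in BFC and -4.54 ± 0.14 in 3T3-L1, but the interval of the difference (-0.29 to 0.62) passed the bound of 0.5. Its relative Ccl7 fell by more in BFC (-5.44 in BFC and -3.98 in 3T3-L1, adjusted p of the difference 0.0072). Ptgs2, the inducible cyclooxygenase, changed by -3.31 in BFC and -3.66 in 3T3-L1, and Csf1, the growth factor of macrophages, by -2.69 in BFC and -2.58 in 3T3-L1. Indomethacin, a cyclooxygenase inhibitor, was in the BFC mix only.

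Genes of the actin cytoskeleton fell in both lines. Of 29 genes tested, 28 fell in the mean and 26 in each line, beside 36.0% and 18.0% of all genes tested. Their median was -1.94 in BFC and -1.64 in 3T3-L1. The sizes were uneven: the difference in change was called in 19 of 29, beside 51.1% of all genes tested. Among genes that fell in each line, 10 fell by more in BFC and 7 by more in 3T3-L1, by a called difference. Only 1 fall was of similar size. Acta2, smooth muscle actin, the mark of contractile fibroblasts, gave 563, 461 and 710.0 in BFC adipocytes, against 6949, 7130.3 and 6279 in BFC preadipocytes, and 1419.6, 1329.8 and 1095 in 3T3-L1 adipocytes, against 12274, 12312 and 12782 in 3T3-L1 preadipocytes, changes of -3.54 ± 0.15 in BFC and -3.27 ± 0.15 in 3T3-L1. Myl9, the regulatory light chain of smooth muscle myosin, gave 60.4, 55.9 and 4.13 in BFC adipocytes, against 1372, 1359 and 1312 in BFC preadipocytes, and 42.4, 19.2 and 27.3 in 3T3-L1 adipocytes, against 504, 444 and 428 in 3T3-L1 preadipocytes. The groups were far apart in each line, but 1 BFC adipocyte array stood well below the others and the changes carried a wide error (-4.83 ± 0.43 in BFC and -3.40 ± 0.43 in 3T3-L1). Tagln, which binds actin in the same cells, changed by -3.27 in BFC and -3.85 in 3T3-L1. Actn1, the crosslinker alpha-actinin, gave 869.6, 798 and 846 in BFC adipocytes, against 3360.1, 3502 and 3161 in BFC preadipocytes, and 1868, 2149 and 1963 in 3T3-L1 adipocytes, against 7332, 7424 and 7823 in 3T3-L1 preadipocytes, a change of similar size (-1.97 in BFC and -1.91 in 3T3-L1). Its 2 other probe sets gave -1.34 and -1.58 in BFC and -1.62 and -0.99 in 3T3-L1. Flna, filamin A itself, gave 488, 578 and 519 in BFC adipocytes, against 2326, 2063 and 2374 in BFC preadipocytes, and 828, 833 and 779.6 in 3T3-L1 adipocytes, against 4307, 4085 and 3728 in 3T3-L1 preadipocytes and changed by -2.06 in BFC and -2.29 in 3T3-L1. Cnn2, a calponin, fell by 4.07 in BFC and by 2.01 in 3T3-L1. Srf, the transcription factor that reads the state of actin and drives many of these genes, had signals of 365, 388 and 387 in BFC adipocytes, against 977, 954 and 964 in BFC preadipocytes, and 303, 236 and 226 in 3T3-L1 adipocytes, against 596, 534 and 521 in 3T3-L1 preadipocytes, changes of -1.31 in BFC and -1.07 in 3T3-L1. Actn1, Cnn2 and Srf were named after their values were seen.

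Serum response factor binds the CArG box, which is CC, then 6 letters of A or T in any order, then GG. The promoters of 4 genes that fell in each line are shown because a CArG box lies in each, with the box in capitals, read 5′ to 3′ on the strand of the gene over 250 bases before and 50 after the start (RefSeq, GRCm38.p6). They were picked after their values and their letters were seen. Filip1l lies at chr16:57548992-57549291 on the + strand, with the box starting at position -62 from the start. Srf lies at chr17:46556113-46556412 on the - strand with 2 boxes, the first at -82, Myl9 at chr2:156775214-156775513 on the + strand with a box at -161, and Cnn2 at chr10:79988350-79988649 on the + strand with a box at -56.
Filip1l: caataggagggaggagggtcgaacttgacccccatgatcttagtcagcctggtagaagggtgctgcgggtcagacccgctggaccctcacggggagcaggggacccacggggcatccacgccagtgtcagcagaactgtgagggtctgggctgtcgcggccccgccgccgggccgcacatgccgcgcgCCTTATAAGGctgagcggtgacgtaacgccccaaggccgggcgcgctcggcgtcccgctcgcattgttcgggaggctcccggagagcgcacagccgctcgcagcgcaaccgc
Srf: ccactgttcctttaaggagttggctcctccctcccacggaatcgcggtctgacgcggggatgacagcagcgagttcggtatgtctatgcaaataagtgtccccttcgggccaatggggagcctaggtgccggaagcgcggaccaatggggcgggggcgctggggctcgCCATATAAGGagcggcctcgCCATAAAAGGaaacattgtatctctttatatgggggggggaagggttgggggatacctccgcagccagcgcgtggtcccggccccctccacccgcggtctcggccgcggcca
Myl9: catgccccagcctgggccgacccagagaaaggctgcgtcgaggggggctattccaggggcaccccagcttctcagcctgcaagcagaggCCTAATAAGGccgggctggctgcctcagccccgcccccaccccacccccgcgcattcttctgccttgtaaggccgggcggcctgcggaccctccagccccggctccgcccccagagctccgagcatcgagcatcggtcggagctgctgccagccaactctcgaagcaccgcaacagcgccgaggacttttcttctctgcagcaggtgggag
Cnn2: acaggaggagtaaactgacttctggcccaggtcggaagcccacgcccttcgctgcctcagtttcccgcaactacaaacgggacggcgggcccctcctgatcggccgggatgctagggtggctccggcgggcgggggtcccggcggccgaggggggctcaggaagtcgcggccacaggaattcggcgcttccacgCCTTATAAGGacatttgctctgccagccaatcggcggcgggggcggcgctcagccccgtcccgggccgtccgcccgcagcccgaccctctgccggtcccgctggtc

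A CArG box on either strand was found in 2.61% of the 651 promoter windows of genes that fell at least 2-fold in each line, in 1.25% of the 798 windows of genes that rose as much, and in 1.29% of the 14077 windows of all genes tested. These windows covered 496 of 641 falls, 605 of 753 rises and 11031 of 13752 genes tested. The box holds the letters of the TATA box in some of its forms, so a match may count for both. The NRF1 element (GCGC, any base, then TGCGC), known from promoters of mitochondrial genes, was in 7.14% of windows of rises, 2.46% of windows of falls and 9.03% of all. The PPAR/RXR direct repeat (AGGNCA, any base, then AGGNCA again) was in 0.88% of windows of rises (7 windows), 0.15% of windows of falls (1 window) and 0.30% of all. In windows of rises, falls and all genes tested, the C/EBP letters TTGCNNAA were in 9.65%, 7.22% and 8.75%, the ERR letters TNAAGGTCA in 0.50%, 0.61% and 0.85%, and the E2F letters TTTCCCGC in 1.25%, 2.00% and 1.86%. In the same order, the TEAD letters ACATTCC were in 3.13%, 3.69% and 2.94%, CCAAT in 38.97%, 37.79% and 37.32%, and TATAAA in 8.15%, 10.14% and 7.94%. Genes of similar size had 124 windows of rises and 77 of falls. There the NRF1 element was in 6.45% of rises and 6.49% of falls. The PPAR/RXR repeat was in 0 windows of these rises and 1 of these falls, and the CArG box in 0 and 2. All were searched on both strands, and an ERR match can share letters with the PPAR/RXR repeat. These are matches of letters, given without a test, and they do not show binding.

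Other structural genes fell with actin. Tubulins and microtubule proteins fell in the mean in 12 of 14 genes and in each line in 9, beside 36.0% and 18.0% of all genes tested. Their median was -0.47 in BFC and -1.14 in 3T3-L1. Tubb5, a beta tubulin, gave 6957, 6427 and 6779 in BFC adipocytes, against 14845, 14876 and 12412 in BFC preadipocytes, and 7203, 7461 and 7721 in 3T3-L1 adipocytes, against 14646, 16022 and 16925 in 3T3-L1 preadipocytes, a change of similar size (-1.06 in BFC and -1.08 in 3T3-L1) that is open to probes shared with its close relatives. A second probe set gave -0.84 in BFC and -1.70 in 3T3-L1. Map4, which binds microtubules, changed by -1.46 in BFC and -1.20 in 3T3-L1. Its 3 other probe sets gave smaller values, -0.54, -0.47 and -0.40 in BFC and -0.80, -0.12 and 0.19 in 3T3-L1. Integrins and adhesion genes fell in each line in 11 of 18 and rose in 3, beside 18.0% and 16.8% of all genes tested. Their median was -0.87 in BFC and -0.99 in 3T3-L1. Itgb1, the beta subunit of most matrix-binding integrins, gave 1584, 1677 and 1503 in BFC adipocytes, against 3534, 3529 and 3724 in BFC preadipocytes, and 1184, 1388 and 1431 in 3T3-L1 adipocytes, against 3426, 2717 and 2868 in 3T3-L1 preadipocytes, with close changes (-1.17 in BFC and -1.16 in 3T3-L1) and BFC cells somewhat brighter at each stage (named after its values were seen). Its 4 other probe sets gave smaller values, -1.05, -0.83, -0.15 and -0.74 in BFC and -0.36, -0.69, 0.15 and -0.48 in 3T3-L1. Cd44, the hyaluronan receptor, fell in each line (-2.15 in BFC and -2.60 in 3T3-L1). Genes of the membrane and of signalling were among the largest falls seen in each line: Tm4sf1, a surface protein (-5.41 in BFC and -4.82 in 3T3-L1), Anxa3, an annexin (-4.02 in BFC and -4.95 in 3T3-L1), and Rgs4, which damps G protein signals (-3.75 in BFC and -4.77 in 3T3-L1).

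**Figure D4:**
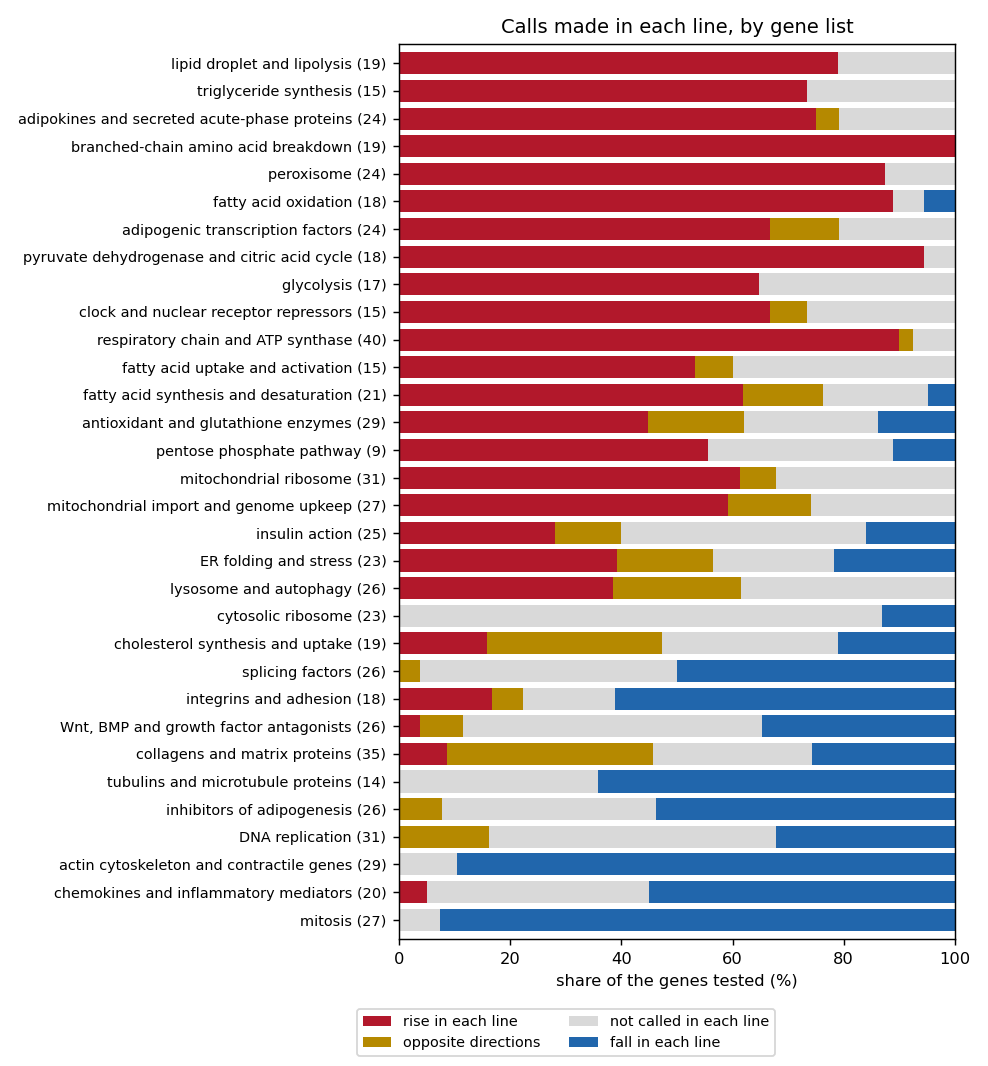
Share of the genes tested in each list (horizontal axis, percent) that rose in each line, were called in opposite directions, were not called in each line, or fell in each line; the number of genes tested is in brackets. Branched-chain amino acid breakdown is filled by shared rises (19 of 19), actin by shared falls (26 of 29), and collagens hold the most opposite calls (13 of 35).

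The collagens and matrix proteins fell in the mean in 25 of 35 genes, but this was not a shared change. In each line 9 fell and 3 rose, beside 18.0% and 16.8% of all genes tested, and 13 were called in opposite directions, beside 8.57%. The share of all genes that fell in the mean was 36.0%. The median was -2.50 in BFC and 0.35 in 3T3-L1. Col3a1, a fibrillar collagen, gave 1304, 1265 and 1336 in BFC adipocytes, against 24857, 24333 and 19420.2 in BFC preadipocytes, and 30404, 27049 and 28096 in 3T3-L1 adipocytes, against 12143, 13258 and 13280.0 in 3T3-L1 preadipocytes, and Postn, periostin, changed by -6.10 in BFC and 1.78 in 3T3-L1. Shared falls were seen in Col8a1 (-3.60 in BFC and -3.24 in 3T3-L1), a short-chain collagen, and in Thbs1 (-2.16 in BFC and -2.39 in 3T3-L1), a matrix protein that activates TGF-beta.

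Cell division genes fell in the mean throughout, with sizes that depended on the line. All 27 mitosis genes fell in the mean and 25 in each line, beside 36.0% and 18.0% of all genes tested. Their median was -0.80 in BFC and -3.52 in 3T3-L1, and in all 25 the fall was larger in 3T3-L1 by a called difference. Bub1b, a checkpoint kinase, gave 454, 455 and 575 in BFC adipocytes, against 1690.2, 2002 and 1525 in BFC preadipocytes, and 68.2, 40.6 and 53.7 in 3T3-L1 adipocytes, against 927, 889.9 and 957 in 3T3-L1 preadipocytes, and Kif23, a motor of cytokinesis, changed by -1.43 in BFC and -4.48 in 3T3-L1. DNA replication genes all fell in the mean (31 of 31), beside 36.0%. Of these, 10 fell in each line and 5 were opposite, beside 18.0% and 8.57%, with a median of -0.035 in BFC and -2.82 in 3T3-L1. Tyms, thymidylate synthase, was the member with the highest smaller fall (-0.94 in BFC and -2.44 in 3T3-L1). Pola1, a subunit of the polymerase that starts DNA strands, gave 3306, 3102 and 3073 in BFC adipocytes, against 2270.0, 2403 and 2586 in BFC preadipocytes, and 309, 247 and 258 in 3T3-L1 adipocytes, against 3437, 3113 and 3327 in 3T3-L1 preadipocytes. It rose in BFC and fell in 3T3-L1, as did Cdt1, which licenses replication origins (0.75 in BFC and -3.14 in 3T3-L1). Splicing factors fell in the mean in 24 of 26 genes and in each line in 13, beside 36.0% and 18.0%. Their median was -0.24 in BFC and -1.09 in 3T3-L1, and 23 fell in each line with hybridization control scaling.

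Of 15 clock genes and nuclear receptor repressors, 12 rose in the mean and 10 in each line, beside 31.2% and 16.8% of all genes tested. Their median was 0.91 in BFC and 0.86 in 3T3-L1. Per3, a period protein of the circadian clock, gave 1512, 1576 and 1579.5 in BFC adipocytes, against 567, 552 and 448 in BFC preadipocytes, and 797, 751 and 901 in 3T3-L1 adipocytes, against 271, 289 and 252 in 3T3-L1 preadipocytes, a change of similar size (1.55 in BFC and 1.53 in 3T3-L1) that its 5 other probe sets showed less evenly. Bhlhe40, a repressor of the clock, rose by 2.55 in BFC and 1.71 in 3T3-L1. Endoplasmic reticulum folding and stress genes rose in each line in 9 of 23 and fell in 5, beside 16.8% and 18.0% of all genes tested (median -0.10 in BFC and 0.52 in 3T3-L1). Lysosome and autophagy genes rose in each line in 10 of 26, with 6 in opposite directions, beside 16.8% and 8.57% of all genes tested (median 0.23 in BFC and 0.42 in 3T3-L1). The rises in each line numbered 5 with equal medians and 3 with hybridization control scaling, where 2 fell in each line.

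The mean of both lines is least informative for genes that moved in opposite directions. Among the 1179 such genes, 588 were not called in the mean and 591 were. The 4 with the largest smaller change all fell in BFC and rose in 3T3-L1. Apod, a lipid-binding apolipoprotein, gave 11.4, 23.0 and 24.6 in BFC adipocytes, against 770.3, 655 and 617 in BFC preadipocytes, and 2940.2, 2348 and 2158 in 3T3-L1 adipocytes, against 49.3, 7.72 and 6.88 in 3T3-L1 preadipocytes. Camp, an antimicrobial peptide, gave 19.9, 25.8 and 8.17 in BFC adipocytes, against 363, 378 and 264 in BFC preadipocytes, and 2686, 2754 and 2343 in 3T3-L1 adipocytes, against 6.64, 12.4 and 6.6 in 3T3-L1 preadipocytes. In both genes BFC preadipocytes and 3T3-L1 adipocytes were the bright groups, and the mean changes of 0.97 ± 0.25 and 1.67 ± 0.14 described neither line. Pdlim4, an actin-associated protein, changed by -3.52 in BFC and 4.04 in 3T3-L1, and Angptl1, an angiopoietin-like secreted protein, by -3.60 in BFC and 3.52 in 3T3-L1, with mean changes of 0.26 ± 0.15 and -0.039 ± 0.13 that did not pass (adjusted p = 0.15 and 0.81).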

How the data were processed

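Total RNA of 12 samples was hybridised to 3′ expression arrays after amplification to biotin-labelled cRNA, per the labels' protocols. The authors deposited a linear signal intensity for each probe set, from Affymetrix Expression Console as the submitters' processing notes name it, with its version and algorithm not given in the sources used here. On every array the mean after trimming 2% at each end was 500.003 to 500.004. Of 45101 probe sets, 34945 carried 1 symbol in the platform annotation, 932 several, 9211 were not listed, and 64 were controls; 34754 matched GRCm38.p6 gene identifiers. The probe set with the highest mean stood for each of 18193 genes. Genes above the array's 40th percentile (32.9 to 41.2) on at least 3 arrays were kept (13752), and 4441 were too dim. The number of arrays limits the precision. Pairs of arrays correlated at 0.978 to 0.982 within groups and 0.885 to 0.935 between groups.

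log2(signal + 16) was fitted with limma 3.58.1 in R 4.3.3 (lmFit on 4 group means, eBayes, 8 residual and 1.81 prior degrees of freedom), with Benjamini-Hochberg adjustment over all genes. Two-sided exact permutation tests, tables, motifs and plots used Python 3.11.15 with scipy 1.17.1, pandas 2.3.3, numpy 2.4.6 and matplotlib 3.10.9. The fit was tested on simulated data. Lists (32 of pathways, 788 of 857 entries matched with 7 marker lists included) are described by counts and medians. Named were the 8 largest rises and falls of similar size without overlap in either line, the 6 rises and 6 falls with the largest smaller change, up to 4 such members and the opposite members of a list, fixed genes (Lrg1, Pparg, Cebpa, Fabp4, Adipoq, Slc2a4, Lep, Ucp1, Dlk1), 2 genes on each side of the bound and the 4 leading opposite genes, and the text gives a selection; exceptions are marked. Members and lists were chosen with earlier results of these data known. Alternatives covered the pseudocount, scaling, filter, probe sets, moderation, additive fit, replicate block, threshold, bound and each array left out.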

Additional observations from a re-analysis of the deposited data

Results flagged for a closer look

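The change with differentiation differed between the lines, by a test of the difference itself (limma, BFC minus 3T3-L1, adjusted p under 0.05), in many of the genes named. The called differences were read against 51.1% of all genes tested. In genes that moved the same way in each line and by more in BFC, the difference was 2.43 for Lrg1, 1.62 for Cox7a1, 5.56 for Mb, 0.44 for Ppargc1b, 0.29 for Sod2, 0.24 for Etfa and 0.84 for Bhlhe40 among the rises, and -1.36 for Dlk1, -0.6 for Tm4sf1, -1.46 for Ccl7, -2.3 for Sox9 and -2.06 for Cnn2 among the falls. In rises that were larger in 3T3-L1, the storage and glucose genes gave -2.19 for Pparg, -3.8 for Cebpa, -4.61 for Klf15, -1.88 for Fabp4, -3.55 for Slc2a4, -3.67 for Thrsp, -1.48 for Tlcd3b, -2.54 for Orm1, -4.24 for Pck1, -4.63 for Gpd1, -0.88 for Pnpla2, -1.33 for Mgll and -0.74 for Hk2. The mitochondrial, peroxisomal and antioxidant rises larger in 3T3-L1 gave -3.23 for Pcx, -0.28 for Pdhb, -0.28 for Idh3a, -0.38 for Sdha, -0.23 for Ndufab1, -0.3 for Dld, -0.93 for Bckdha, -0.84 for Acadvl, -0.42 for Echs1, -0.29 for Phyh, -0.5 for Ppargc1a and -0.83 for Gstk1. In falls that were larger in 3T3-L1 it was 0.93 for Anxa3, 1.02 for Rgs4, 0.46 for Id3, 0.45 for Cd44, 1.98 for Bub1b, 3.06 for Kif23 and 1.51 for Tyms. Of these, Idh3a, Sod2, Dld, Ndufab1 and Etfa still met the bound for a similar size.

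Genes called in only 1 line differed by -8.95 for Adipoq, 3.9 for Lep and 3.81 for Ucp1. Genes called in opposite directions differed by -2.09 for Cebpd, 4.13 for Klf5, -3.81 for Zfp423, -5.25 for Col3a1, -7.88 for Postn, 3.91 for Pola1, 3.89 for Cdt1, -10.54 for Apod, -7.12 for Angptl1, -7.56 for Pdlim4 and -10.13 for Camp.

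Probe sets that name no single gene were left out of the report. Of 10092 such probe sets, 5400 were bright enough to be tested, and 271 of them changed at least 2-fold in each line in the same direction, 185 up and 86 down.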

How the results depend on the processing

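There were 29 alternatives, not all of which recounted every result. Where recounted, the genes called in the mean and in each line stayed within 1.5 times their main values. Hybridization control scaling came near that limit, with 1545 rises and 3652 falls in each line, against 2305 and 2475. The counts of similar size depended on the definition, as its construction implies: 11 rises and 9 falls with a bound of 0.25, 395 and 347 with a bound of 1, and 10 and 9 with a mean change of at least 2, where the main counts were 114 and 73. Scaling to hybridization controls gave 118 falls of similar size (46 shared with the main 73), and averaging all probe sets of a gene gave 74 rises (57 shared). The cause was not tested. Membership also moved where counts moved less. Equal medians gave 111 rises (67 shared with the main 114) and 75 falls (40 shared). Hybridization control scaling gave 80 rises (56 shared), and quantile normalization gave 137 rises (94 shared) and 67 falls (47 shared). Robust moderation kept 111 of the rises and 71 of the falls. With each array left out in turn, 4120 to 4230 genes rose and 4803 to 4934 fell in the mean, 2140 to 2261 rose and 2302 to 2421 fell in each line, and 91 to 105 rises and 61 to 74 falls were of similar size. Putting the difference between the lines into the residual (additive fit) gave 3496 rises and 3942 falls. Cebpd, Klf5, Zfp423, Col3a1, Postn, Cdt1, Apod and Camp lost their call in the mean under that fit, as Cebpd and Apod did with averaged probe sets and Uqcrq did (0.14, adjusted p = 0.65) without probe sets of less specific design. Pdlim4 gained a call with a pseudocount of 64 (0.26) and without white preadipocyte replicate 1 (0.40). The mean change of Angptl1, -0.039 and not called, turned to 0.056 with quantile normalization, 0.0092 with equal medians, and lay above 0 without white preadipocyte replicate 2 (0.044), white adipocyte replicate 3 (0.011) or brown preadipocyte replicate 3 (0.016), with -0.11 to 0.044 over all arrays left out. Of 119 genes under 26 settings, 3075 of the values kept direction and call.

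With the replicate number as a block, 4279 genes rose and 4930 fell in the mean, 2273 rose and 2438 fell in each line, and 110 rises and 73 falls were of similar size. The numbers did not pair the arrays: deviations of 18 same-numbered pairs correlated at -0.029 to 0.067, none over 0.1, and 6 of 12 arrays correlated best with their own number. Depth in the sense of reads does not apply; signal near the floor limits dim genes, and 3 arrays in a group limit the intervals.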

Other observations

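Over all genes tested, the spread between the 12 arrays could be divided by its sources. Differentiation stage held 41.3% of the pooled sum of squares, the line 35.0%, the line-by-stage term 14.9% and the spread between replicates 8.79%. In 608 genes the stage alone held over 90% of the gene's own sum of squares, 389 of them up in adipocytes and 219 down, and 99 of the 608 were among the genes of similar size. Across genes, which are not independent, the changes of BFC and 3T3-L1 correlated at r = 0.477, with SDs of 1.10 and 1.23; no array is shared between them.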
